A study of Mus musculus with 8 samples.

Results

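Prostaglandins are lipid mediators made from arachidonic acid, and the genes described here cover the path from the release of that fatty acid to the inactivation of the product. They were chosen as 10 named genes: Pla2g4a, Ptgs1, Ptgs2, Ptges, Ptgis, Ptger2, Ptger4, Slco2a1, Hpgd and Ptgr1. All 10 have probes on the array, 14 probes in all among 56605, and 8 of the 10 passed the filter on dim probes, among 25353 genes and unnamed transcripts that passed it. RNA came from TEC71, an immortalized mouse line that the labels trace to medullary thymic epithelium, the tissue in which maturing T cells are tested for self-reactivity. The edited cells carried a knock-in mutation of Gtf2i, written Gtfi2i T1211A in the genotype label. They were 2 lines, knockin#1 and knockin#3 in the titles and clone #1 and clone #3 in the descriptions. They are called clone 1, with 3 arrays, and clone 3, with 2 arrays. The knock-in control, on 3 arrays, was TEC71 transfected with Cas9n, a nickase form of Cas9, and one gRNA. Gtf2i encodes TFII-I, a transcription factor. The labels call the edited lines clones but do not describe how they or the control were isolated. Each knock-in group is a single clone, so the mutation and other differences between the lines cannot be told apart for any gene. Nothing in the labels says that arrays of one group came from separate cultures. The p-values therefore measure the spread between these arrays, which may be technical.

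Every value is a 1-colour signal on the log2 scale relative to the 75th percentile of its array, called the level below, and a difference of 1 between 2 levels is a 2-fold difference in signal. A gene counted as higher or lower where its adjusted p was under 0.05 in limma, a linear model fitted across all 25353 tested genes and transcripts, with Benjamini-Hochberg adjustment over all of them. Per array, 55.3% to 59.3% of probes stood well above background, the 75th percentile lay at a signal of 390 to 550, no spot was saturated, and the number of arrays limits the precision. The 3 control arrays and the first clone 1 array sat in row 1 of the slide and the other 4 arrays in row 2, so for clone 3 against the control no row holds both groups. With the row as a block, the clone 1 change therefore rests on its first array against the 3 controls, with the spread pooled over all arrays, and a fit on row 1 alone gives the same size by construction and is no second check. The clone 3 change in the block fit is linked to the controls through clone 1 alone. On that first clone 1 array the brightest spike-in control had a signal of 2797, against 17160 to 30390 on the other arrays. Levels correlated at 0.9927 to 0.995 between arrays of one group, at 0.9892 to 0.9939 between the clones and at 0.9643 to 0.9701 between knock-in and control arrays. Of 17 markers of thymic epithelium, Psmb11, H2-Aa, Ccl21a and Enpep were well above background on no array. Aire was above it on some control and clone 1 arrays and on no clone 3 array. On all 8 arrays 12 were above it, among them Epcam, Krt5, Krt8 and Foxn1. Of these 12, 3 were lower in both clones, Epcam (-1.11 in clone 1 and -1.0 in clone 3), Krt5 (-1.33 and -1.12) and Trp63 (-0.66 and -0.99), and 2 were higher, Cldn4 (1.51 and 1.18) and Cd74 (1.27 and 0.65). The summed signal of the 17, in multiples of the 75th percentile, was 239 to 272 in clone 1 and 255 to 279 in clone 3, against 269 to 352 in the control. Of 5 T cell markers, Cd3e, Cd4 and Lck were above background on all 8 arrays and Cd8a and Cd2 on none. Lck was higher in both clones (0.95 in clone 1 and 1.15 in clone 3), and Cd3e and Cd4 passed in neither. The sum of the 5 was 3.7 to 4.38 in clone 1 and 3.76 to 4.35 in clone 3, against 2.51 to 3.0 in the control. Of 7 macrophage and leukocyte markers, Cd68, Csf1r and Itgam were above background on all 8 arrays and Adgre1, Lyz2 and Tyrobp on none. Cd68 was higher in both clones (1.35 in clone 1 and 0.66 in clone 3), and Csf1r and Itgam passed in neither. Their sum over the 7 was 6.31 to 8.44 in clone 1 and 7.16 to 8.11 in clone 3, against 5.13 to 7.46 in the control. The part of these markers in the members' results was not tested. Gtf2i itself changed by -0.46 ± 0.10 in clone 1 (SE, adjusted p = 0.00691) and by -0.58 ± 0.11 in clone 3 (SE, adjusted p = 0.0044), and its probe does not read a point mutation.

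Phospholipase A2 frees arachidonic acid from membrane phospholipids, the cyclooxygenases Ptgs1 and Ptgs2 convert it to prostaglandin H2, and synthases such as Ptges and Ptgis turn that intermediate into prostaglandin E2 and prostacyclin. Prostaglandin E2 acts on neighbouring cells through receptors that include EP2 (Ptger2) and EP4 (Ptger4), both of which raise cAMP. It is taken up by the transporter Slco2a1 and inactivated by Hpgd and then Ptgr1. In the mouse thymus, prostaglandin E2 from stromal cells is known to act on developing T cells.

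The sequences below are promoter windows of 5 members on which the results turn, shown so that the letters at their start sites can be set beside the values. They come from RefSeq on GRCm38.p6, span 250 bases before to 50 bases after the annotated start, and run 5′ to 3′ on the strand of the gene. Windows were found for 9 of the 10 members, and Ptgis is named only. Capitals mark matches on either strand to 5 short motifs. The TATA box was searched as TATAAA and occurs in 13.6% of 32851 RefSeq windows of this length. The E-box was searched as CACGTG and occurs in 7.15% of them. For the cAMP response element the half-site TGACG was used, found in 20.8%. For AP-1 the letters TGANTCA were used, found in 7.81%. For Sp1 the letters GGGCGG were used, found in 35.7%.
Pla2g4a: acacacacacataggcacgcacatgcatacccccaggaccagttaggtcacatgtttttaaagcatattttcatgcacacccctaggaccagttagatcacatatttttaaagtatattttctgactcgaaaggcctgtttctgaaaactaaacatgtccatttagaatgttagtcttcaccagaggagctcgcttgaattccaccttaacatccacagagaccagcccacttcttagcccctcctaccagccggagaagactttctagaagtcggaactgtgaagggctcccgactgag
Ptgs2: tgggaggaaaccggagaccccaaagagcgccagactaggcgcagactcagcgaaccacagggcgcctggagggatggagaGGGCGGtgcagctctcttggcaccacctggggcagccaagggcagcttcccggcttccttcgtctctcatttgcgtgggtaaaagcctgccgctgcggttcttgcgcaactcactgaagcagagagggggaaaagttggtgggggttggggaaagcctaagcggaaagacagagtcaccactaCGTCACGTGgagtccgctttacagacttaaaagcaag
Ptges: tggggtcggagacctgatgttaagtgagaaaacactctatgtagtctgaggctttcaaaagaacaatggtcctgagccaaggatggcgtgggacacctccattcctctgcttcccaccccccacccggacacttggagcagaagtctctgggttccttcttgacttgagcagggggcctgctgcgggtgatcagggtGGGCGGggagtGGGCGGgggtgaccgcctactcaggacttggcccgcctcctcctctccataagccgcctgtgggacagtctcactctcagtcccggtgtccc
Ptger4: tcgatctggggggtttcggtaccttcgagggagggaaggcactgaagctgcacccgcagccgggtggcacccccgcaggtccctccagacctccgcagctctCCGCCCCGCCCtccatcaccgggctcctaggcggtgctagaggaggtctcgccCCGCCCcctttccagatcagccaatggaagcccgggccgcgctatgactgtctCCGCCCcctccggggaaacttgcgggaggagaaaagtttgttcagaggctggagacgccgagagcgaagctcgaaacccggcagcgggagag
Slco2a1: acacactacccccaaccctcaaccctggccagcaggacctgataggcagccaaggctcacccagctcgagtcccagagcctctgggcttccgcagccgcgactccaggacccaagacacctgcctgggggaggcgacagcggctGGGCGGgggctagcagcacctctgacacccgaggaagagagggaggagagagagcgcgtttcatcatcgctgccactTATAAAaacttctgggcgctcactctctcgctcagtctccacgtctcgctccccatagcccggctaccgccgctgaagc
The windows lie at chr1:149961241-149961540 on the minus strand for Pla2g4a, chr1:150099781-150100080 on the plus strand for Ptgs2, chr2:30903248-30903547 on the minus strand for Ptges, chr15:5244138-5244437 on the minus strand for Ptger4 and chr9:103008237-103008536 on the plus strand for Slco2a1. A second RefSeq start of Pla2g4a is not shown. None of the 5 motifs occurs in the window shown for Pla2g4a. The Ptgs2 window holds the cAMP half-site on the opposite strand at bases 14 to 18 after the start, which overlaps an E-box at bases 17 to 22, and an Sp1 site from base -170 to base -165. The Ptges window holds 2 Sp1 sites, from -53 to -48 and from -42 to -37. That of Ptger4 holds 4 on the opposite strand, 1 overlapping pair among them (-148 to -143 and -143 to -138). Slco2a1 alone among these 5 windows has TATAAA, from -29 to -24, beside 1 Sp1 site from -106 to -101. Each match describes letters in the window and shows neither binding nor use.

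In clone 1, 4 of the 8 tested members were higher than in the control (Pla2g4a, Ptgs2, Ptger4 and Ptgr1) and 2 were lower (Ptgis and Slco2a1). Over all tested genes and transcripts, 14.4% were higher and 16.9% lower in that comparison. In clone 3, Pla2g4a and Ptger4 were higher and Ptgis and Slco2a1 lower, where 13.5% of all tested were higher and 16.8% lower. These 4 genes were therefore called with the same sign in both clones, 2 higher and 2 lower of 8, where 11.3% of all tested were higher in both and 12.3% lower in both. The members were chosen with earlier results of these data known, so counts set beside these shares are no test of an excess. The clones share their control arrays, so the comparisons are not independent of each other. The members' median change was 0.10 in each clone, against -0.05 in clone 1 and -0.03 in clone 3 over all tested. Between clone 3 and clone 1, 0 of the 8 members passed in limma, where 0.071% of all tested did, and 1 member, Ptgs2, had an unadjusted p under 0.05, where 10.8% of all tested did.

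**Figure D1:**
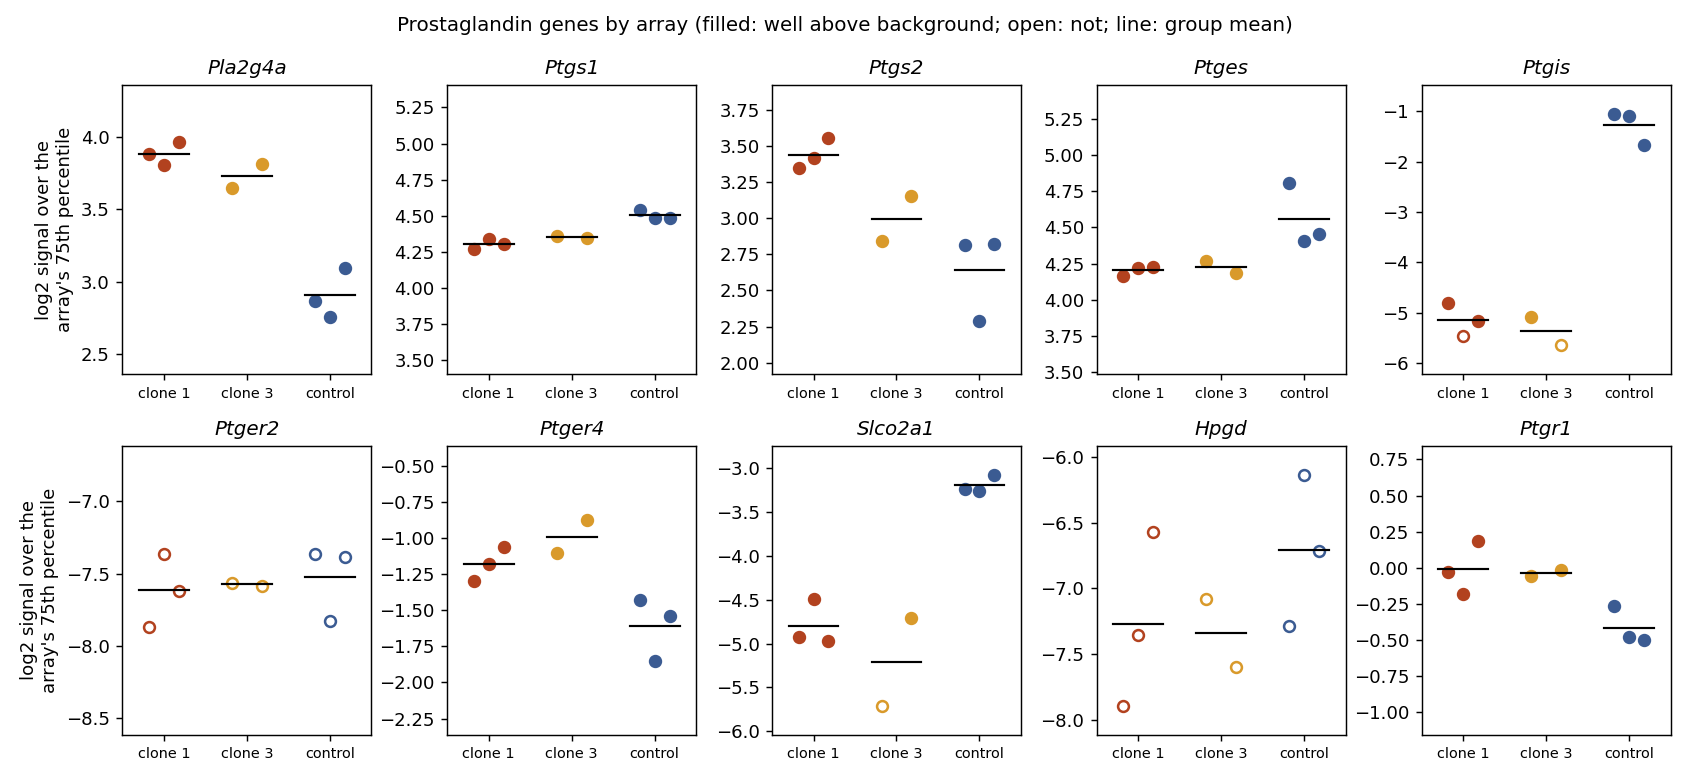
Level of each of the 10 genes on each of the 8 arrays (log2 signal over the array's 75th percentile), with clone 1, clone 3 and control from left to right. Each point is 1 array, filled where the probe was well above background and open where it was not, the line is the group mean, and the y axis differs between panels. The knock-in points of Pla2g4a lie above all control points and those of Ptgis and Slco2a1 below them, while all points of Ptger2 and Hpgd are open.

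Pla2g4a, the cytosolic phospholipase A2 that supplies arachidonic acid to the cyclooxygenases, was higher in both clones by close to 2-fold. Its level was 3.88, 3.80 and 3.96 on the clone 1 arrays, 3.65 and 3.82 on the clone 3 arrays, and 2.86, 2.76 and 3.09 on the control arrays. Every knock-in array lay above every control array, and the clones overlapped with each other. The change was 0.98 ± 0.12 in clone 1 (SE, adjusted p = 0.000525), a 1.97-fold difference, and 0.83 ± 0.14 in clone 3 (SE, adjusted p = 0.00261), a 1.77-fold difference. Clone 3 minus clone 1 was -0.15, with a 95% interval of -0.46 to 0.16. With the array row as a block the clone 1 value, which then rests on 1 clone 1 array, was 0.97 (adjusted p = 0.012, and 0.0317 in the fit on row 1 alone). For clone 3 the block left the size at 0.82 and ended the call (adjusted p = 0.0874). In bulk RNA such as this, a change in the share of cells that express a gene and a change in its RNA per cell cannot be told apart.

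The cyclooxygenases came next. Ptgs1, the constitutive enzyme, was well above background on all arrays and had levels of 4.27 to 4.34 in clone 1, 4.35 to 4.36 in clone 3 and 4.48 to 4.54 in the control. The knock-in arrays all lay below the control arrays, but by little, with a change of -0.20 ± 0.09 in clone 1 (SE, adjusted p = 0.137) and -0.15 ± 0.10 in clone 3 (SE, adjusted p = 0.312). Neither passed the test. The 95% intervals ran from -0.41 to 0.01 in clone 1 and from -0.38 to 0.08 in clone 3.

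Ptgs2, the inducible cyclooxygenase, was higher in clone 1 than in the control and passed the test there only. Its level was 3.35, 3.41 and 3.56 on the clone 1 arrays, 2.84 and 3.16 on the clone 3 arrays, and 2.81, 2.29 and 2.82 on the control arrays. All clone 1 arrays lay above all others, and the lower clone 3 array lay just above the highest control array. The control arrays spread the most (SD 0.31, n = 3). The change was 0.80 ± 0.17 in clone 1 (SE, adjusted p = 0.00796), 1.74-fold, and 0.36 ± 0.19 in clone 3 (SE, adjusted p = 0.196). Clone 3 minus clone 1 was -0.44 with a 95% interval of -0.88 to -0.01, and it did not pass over all tested (unadjusted p = 0.0474, adjusted p = 0.456). With each array left out in turn, the clone 1 change stayed between 0.62 and 0.89 and was called 8 of 8 times. With the row as a block, on the single clone 1 array of row 1, it was 0.71 and was not called (adjusted p = 0.102, and 0.141 in the fit on row 1 alone). Pla2g4a and Ptgs2 lie beside each other on chromosome 1, with 2 annotated genes between them, neither of them protein-coding.

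Among the synthases, Ptges, the inducible microsomal prostaglandin E synthase, gave different values on its 3 probes, which all carry the same RefSeq transcript accession. On the probe that stands for the gene because its signal was the highest (A_55_P1974193), levels were 4.17, 4.22 and 4.23 in clone 1, 4.27 and 4.18 in clone 3, and 4.80, 4.41 and 4.45 in the control. Knock-in and control arrays did not overlap, but the change of -0.35 ± 0.13 in clone 1 (SE, adjusted p = 0.0658) and -0.33 ± 0.14 in clone 3 (SE, adjusted p = 0.113) did not pass.

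On the second Ptges probe (A_51_P312327), levels were -2.24, -2.35 and -1.94 in clone 1, -2.21 and -2.28 in clone 3, and 0.96, 1.12 and 0.58 in the control. That is a change of -3.06 ± 0.17 in clone 1 (SE, adjusted p = 3.69e-06) and -3.13 ± 0.18 in clone 3 (SE, adjusted p = 8.06e-06), with each of 32313 probes tested on its own. The third probe (A_55_P1974189) had levels of -2.99, -2.98 and -3.21 in clone 1, -2.95 and -2.90 in clone 3, and -0.22, -0.36 and -0.93 in the control. Its change was -2.55 ± 0.18 in clone 1 (SE, adjusted p = 1.93e-05) and -2.42 ± 0.20 in clone 3 (SE, adjusted p = 6.26e-05). All 3 probes were well above background on all 8 arrays, and on both of these the knock-in arrays lay far below the control arrays. In those single-probe tests 32.8% of probes passed in clone 1 and 31.2% in clone 3.

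The choice of probe thus decides whether Ptges counts as lower in either clone in the fit of 3 groups. The first probe passed in clone 1 when the fit let the variance follow the mean level (adjusted p = 0.0347). It also passed when all 5 knock-in arrays were set against the controls as 1 group (-0.34, adjusted p = 0.0361). With the array row as a block the first probe passed in neither clone (-0.39, adjusted p = 0.214 in clone 1, and -0.39, adjusted p = 0.408 in clone 3). In clone 1 it was called in 0 of the 8 fits that each left out an array. The mean of the Ptges probes gave -1.99 in clone 1 (adjusted p = 1.93e-05) and -1.96 in clone 3 (adjusted p = 5.05e-05). With the array row as a block the second probe gave -3.13 in clone 1 (adjusted p = 0.000239) and -3.23 in clone 3 (adjusted p = 0.00143), and the third probe gave -2.48 (adjusted p = 0.00113) and -2.31 (adjusted p = 0.00939). RefSeq lists 2 transcripts of Ptges, and what each probe reads was not tested here.

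**Figure D2:**
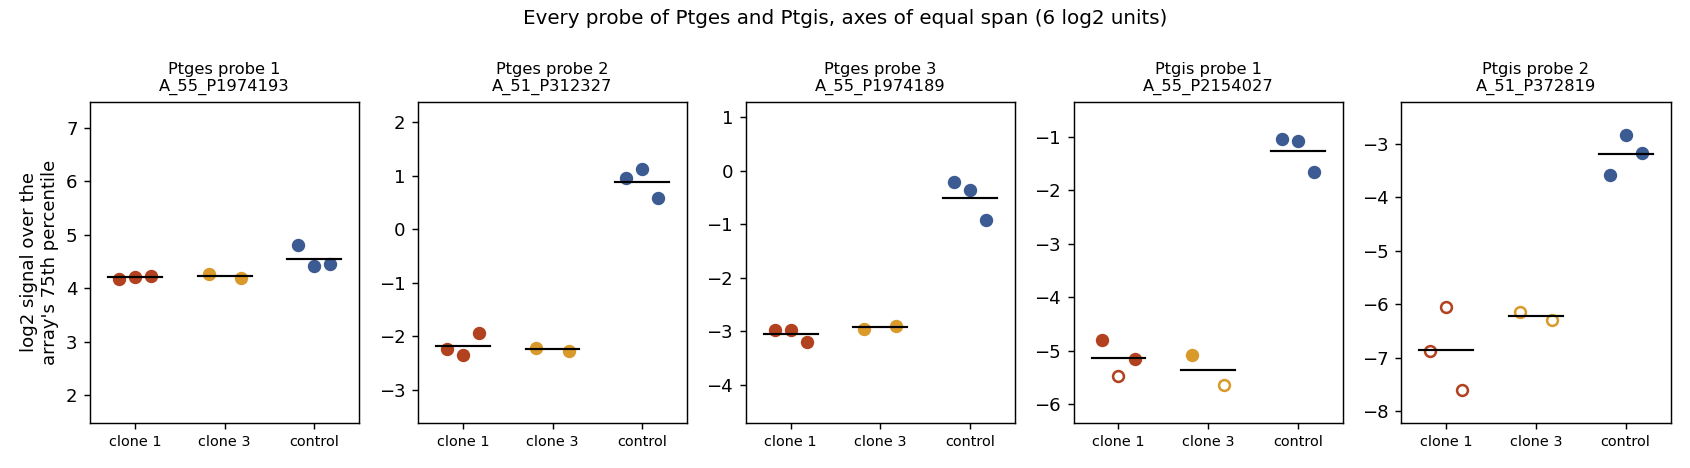
Level of every probe of Ptges and Ptgis on each array (log2 signal over the array's 75th percentile), with clone 1, clone 3 and control from left to right and each y axis spanning 6 log2 units. Filled points were well above background, open points were not, and lines are group means. On Ptges probes 2 and 3 the knock-in means differ from the control mean by -3.13 to -2.42, and on probe 1 by -0.35 to -0.33.

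Ptgis, prostacyclin synthase, was lower in both clones, and its size is not settled because part of the knock-in arrays were not well above background. Its processed signal was 16.8, 9.27 and 14.9 on the clone 1 arrays and 13.5 and 8.33 on the clone 3 arrays, against 187.9, 258.6 and 133.1 on the control arrays. The control probe signals were all well above background, while 2 of 3 clone 1 arrays and 1 of 2 clone 3 arrays were. On the level scale the change was -3.88 ± 0.24 in clone 1 (SE, adjusted p = 9.5e-06) and -4.10 ± 0.27 in clone 3 (SE, adjusted p = 1.7e-05). Ptgis passed the filter on dim probes through the control arrays alone, the group in which it was high, so its p-values are conditional on that difference. With no filter on dim probes limma called it as well (adjusted p = 0.000105 in clone 1 and 0.000173 in clone 3). That fit used the same probe and arrays, so the size is the same by construction. It is no second check, and it rests on the same knock-in signals near background.

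The second Ptgis probe (A_51_P372819) was well above background on the 3 control arrays and on no knock-in array, so its size is not settled. With the lowest level called well above background on each array as a floor, it was 4.91-fold lower in clone 1 and 4.67-fold lower in clone 3. These folds are no strict limits, because levels above the floor can also fail the call. On the first clone 1 array the floor was -6.005, and the gene Col1a1 at -5.75 was not called well above background. In limma its measured levels on this Ptgis probe, not the floor, gave adjusted p = 0.000113 in clone 1 and 0.000735 in clone 3. This probe passed the filter through the control arrays alone, and its p-values rest on knock-in signals at background. With the array row as a block the first probe gave -3.54 in clone 1 (adjusted p = 0.000452) and -3.59 in clone 3 (adjusted p = 0.0028). With normexp background correction, whose offset of 50 compresses dim signals, the first probe changed by -1.77 in clone 1 (adjusted p = 2.58e-06) and -1.74 in clone 3 (adjusted p = 1.12e-05).

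Ptgis is best known from vascular and stromal cells, so markers of those cells are given beside it. Of 7 fibroblast markers, Col1a2 and Pdgfra were well above background on all 8 arrays, and Pdgfrb, Dcn and Lum on none. Col1a1 and Col3a1 were above it on some arrays only. The summed signal of the 7, in multiples of the 75th percentile, was 0.303 to 0.418 in clone 1 and 0.322 to 0.374 in clone 3, against 0.65 to 0.816 in the control. Pdgfra gave the largest part of this sum on every array. Of the pair above background on all 8 arrays, Pdgfra was lower (-1.31 in clone 1, adjusted p = 0.00018, and -1.82 in clone 3, adjusted p = 6.62e-05). Col1a2 did not pass (-0.14, adjusted p = 0.8, and 0.15, adjusted p = 0.808). Of 5 endothelial markers only Pecam1 was above background, and Cdh5, Kdr, Tek and Emcn were not on any array. The endothelial sum was 0.132 to 0.18 in clone 1 and 0.172 to 0.173 in clone 3, against 0.157 to 0.207 in the control. The part of the fibroblast markers in the Ptgis result was not tested.

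The receptors differed in whether they could be measured at all. Ptger2, the EP2 receptor, was not well above background on any array, with levels of -7.87 to -7.36 in clone 1, -7.59 to -7.56 in clone 3 and -7.83 to -7.36 in the control, and it was not tested. Ptger4, the EP4 receptor, was well above background on all 8 arrays on both of its probes. On the probe that stands for the gene its level was -1.30, -1.18 and -1.06 in clone 1, -1.11 and -0.88 in clone 3, and -1.43, -1.85 and -1.54 in the control. The knock-in arrays all lay above the control arrays, by a small margin for 1 clone 1 array.

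The Ptger4 change was 0.43 ± 0.14 in clone 1 (SE, adjusted p = 0.0494), 1.34-fold, and 0.61 ± 0.16 in clone 3 (SE, adjusted p = 0.0192), 1.53-fold. The second probe gave 0.55 ± 0.18 in clone 1 (SE, adjusted p = 0.049) and 0.63 ± 0.20 in clone 3 (SE, adjusted p = 0.0462). On that probe the highest control array, at -4.03, lay just below the lowest clone 3 array, at -4.00. The clone 1 call held in 1 of 8 fits that each left out an array, the one without control replicate 1 (adjusted p = 0.0438), and the other 7 gave 0.0537 to 0.143. For clone 3 the call was lost without clone 3 replicate 2 (0.50, adjusted p = 0.124). With the array row as a block neither passed (clone 1 0.31, adjusted p = 0.358; clone 3 0.44, adjusted p = 0.377).

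Slco2a1, the transporter that takes prostaglandins up from outside the cell, was lower in both clones. Its level was -4.93, -4.50 and -4.97 on the clone 1 arrays, -5.71 and -4.70 on the clone 3 arrays, and -3.23, -3.26 and -3.07 on the control arrays. Every knock-in array lay below every control array, and the lower clone 3 array was not well above background. The change was -1.61 ± 0.25 in clone 1 (SE, adjusted p = 0.00158), 3.06-fold lower, and -2.02 ± 0.28 in clone 3 (SE, adjusted p = 0.00104), 4.06-fold lower. Leaving out each array in turn kept it called, at -1.76 to -1.52 in clone 1 and -2.52 to -1.52 in clone 3. With the row as a block it was -1.74 (adjusted p = 0.0189) in clone 1 and -2.21 (adjusted p = 0.0369) in clone 3. With normexp correction it was -0.62 in clone 1 (adjusted p = 0.00233) and -0.63 in clone 3 (adjusted p = 0.00498).

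Of the 2 members that inactivate prostaglandins, Hpgd could not be tested and Ptgr1 passed in clone 1 by a small margin. Hpgd, the dehydrogenase that starts the inactivation, was not well above background on any array and was not tested, with levels of -7.89 to -6.57 in clone 1, -7.60 to -7.08 in clone 3 and -7.28 to -6.14 in the control. Ptgr1, the reductase that acts after it, had levels of -0.03, -0.18 and 0.19 in clone 1, -0.06 and -0.02 in clone 3, and -0.26, -0.48 and -0.50 in the control. The knock-in arrays all lay above the control arrays, the closest pair being a clone 1 array at -0.18 and a control array at -0.26. Its change was 0.41 ± 0.13 in clone 1 (SE, adjusted p = 0.0408) and 0.38 ± 0.14 in clone 3 (SE, adjusted p = 0.0783), and clone 3 minus clone 1 was -0.03 with a 95% interval of -0.35 to 0.30. The clone 1 call held only without control replicate 1 or clone 1 replicate 2 among the 8 fits that left out an array, with adjusted p of 0.0335 to 0.124 over the 8, and with the array row in the fit it was lost (adjusted p = 0.226).

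**Figure D3:**
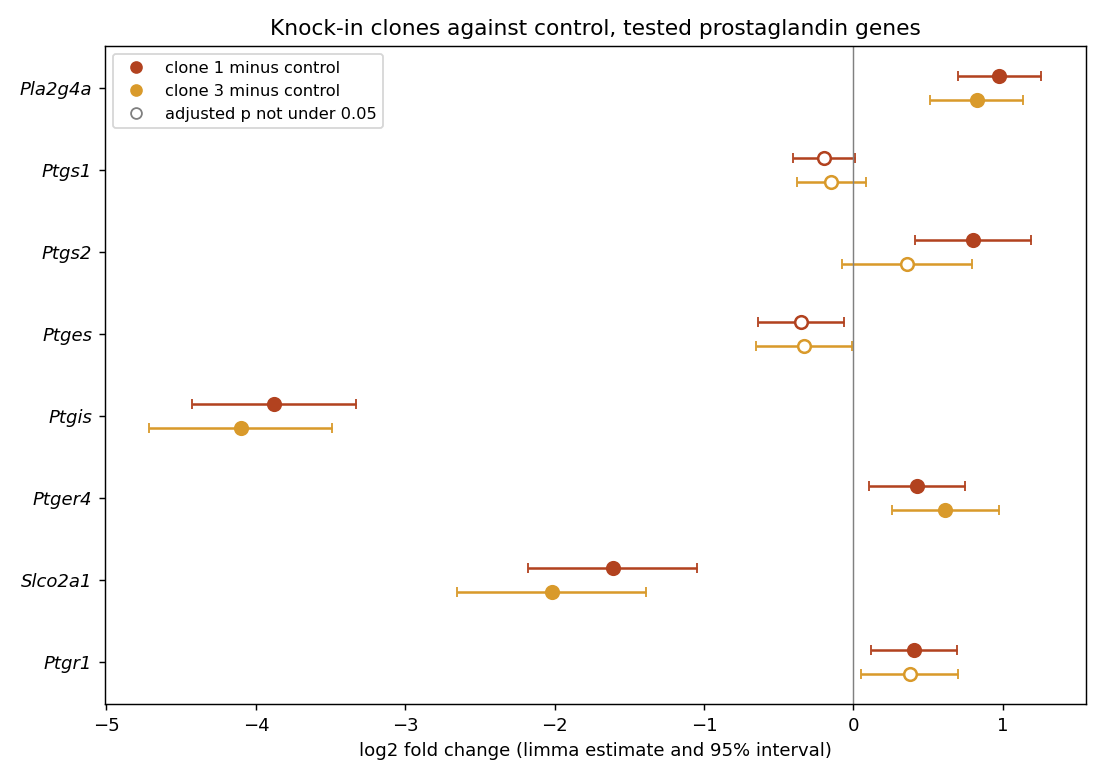
Log2 fold change of the 8 tested genes in clone 1 and clone 3 against the control, as the limma estimate with its 95% interval. Filled points passed an adjusted p of 0.05 and open points did not. Ptgis lies at -3.88 in clone 1 and -4.10 in clone 3 and Slco2a1 at -1.61 and -2.02, while Pla2g4a lies at 0.98 and 0.83.

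**Figure D4:**
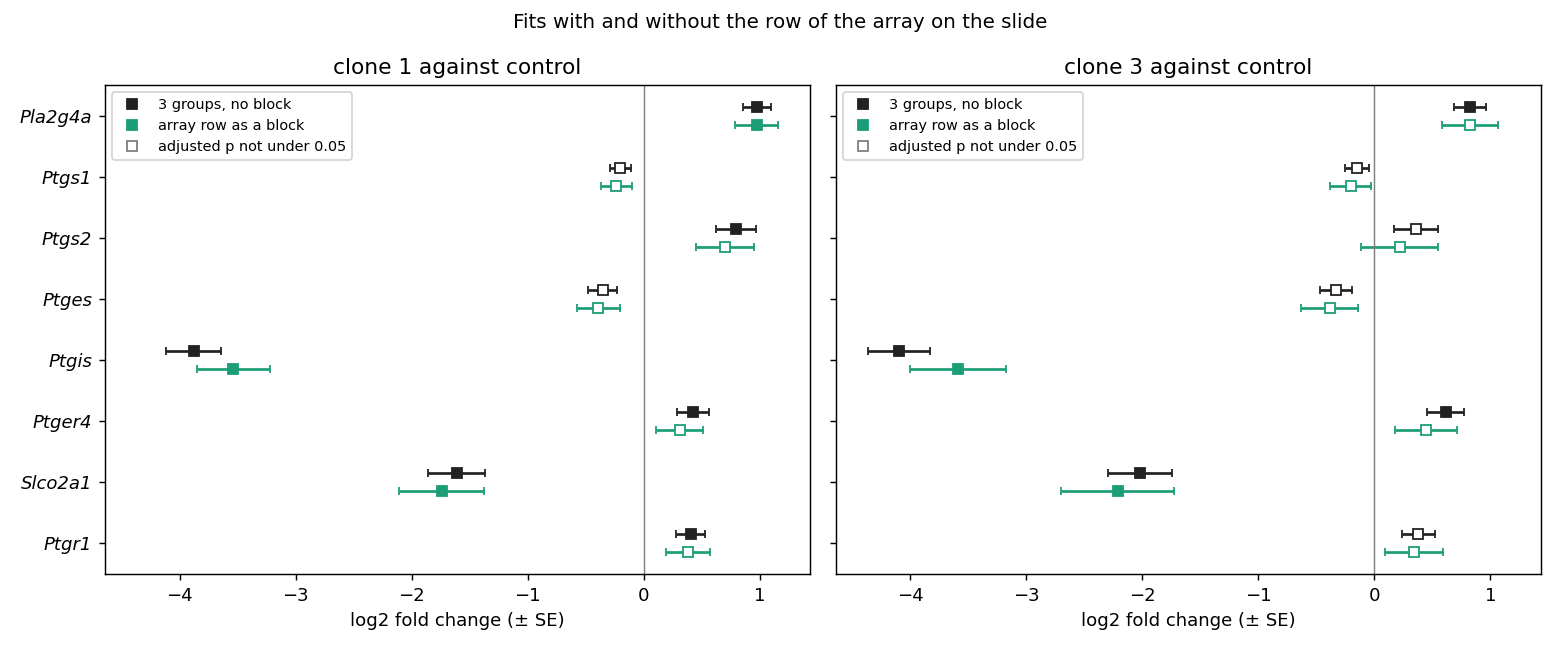
Log2 fold change with its SE in the fit of 3 groups and in the fit with the array row as a block, where the clone 1 values rest on 1 clone 1 array. Filled squares passed an adjusted p of 0.05. Ptgis and Slco2a1 are filled in both fits, and Ptgs2, Ptger4 and Ptgr1 are open with the block. Pla2g4a with the block is filled in clone 1 and open in clone 3.

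Other enzymes of the pathway were taken from a list of prostanoid synthases and catabolic enzymes, 17 of them tested. In both clones 3 were higher (Prxl2b, Ptges3l and Cbr1) and 3 lower (Cbr2, Prxl2a and Ptgr2), with a list median change of 0.01 in each clone. These and the following counts stand beside 11.3% higher and 12.3% lower in both clones over all tested. The lists, too, were chosen with earlier results known, so the counts are no test of an excess. Prxl2b, which makes prostaglandin F and prostamide F, changed by 2.13 ± 0.14 in clone 1 (SE, adjusted p = 1.19e-05) and 1.92 ± 0.15 in clone 3 (SE, adjusted p = 5.26e-05). Cbr1, a carbonyl reductase that can turn prostaglandin E2 into F2 alpha, was higher by 0.73 and 0.74 in clone 1 and clone 3, and Ptges3l, named for its likeness to a prostaglandin E synthase, by 0.97 and 0.88. Ptgr2, a prostaglandin reductase related in function to Ptgr1, changed by -0.91 in clone 1 and -0.70 in clone 3, the opposite sign to Ptgr1. Cbr2, another carbonyl reductase, changed by -0.94 and -1.02, and Prxl2a, a relative of Prxl2b, by -1.02 and -0.84. With the array row as a block 1 stayed higher in both clones, Prxl2b, and all 3 lower genes stayed.

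Among 9 tested receptors and transporters of prostanoids other than the members, 0 were higher in both clones in limma, also at an unadjusted p under 0.05, and 2 were lower, Slco3a1 and Slco4a1. Slco3a1, an organic anion transporter that carries prostaglandins, changed by -3.42 ± 0.16 in clone 1 (SE, adjusted p = 2e-06) and -3.46 ± 0.18 in clone 3 (SE, adjusted p = 4.69e-06). Its level averaged -1.0 with an SD of 0.30 over 3 clone 1 arrays and -1.04 with an SD of 0.09 over 2 clone 3 arrays, against 2.42 with an SD of 0.13 over 3 control arrays. Slco4a1, of the same family, changed by -0.42 and -0.58 and was no longer called once the array row was in the fit (adjusted p = 0.0889 in clone 1 and 0.111 in clone 3), nor in clone 1 without clone 1 replicate 1 (-0.40, adjusted p = 0.0556). Abcc4, an exporter of prostaglandins, passed in clone 1 (0.41, adjusted p = 0.0462) and not in clone 3 (0.26, adjusted p = 0.233). It passed in neither without clone 1 replicate 1 (adjusted p = 0.129 in clone 1) or once the row was a block in the fit (0.52 in clone 1, adjusted p = 0.11). Ptgfrn, a regulator of the prostaglandin F2 alpha receptor, passed in clone 3 (-0.82, adjusted p = 0.00575) and not in clone 1 (-0.28, adjusted p = 0.176), and with the array row as a block the clone 3 call was lost (-0.84, adjusted p = 0.128). Clone 3 minus clone 1 was -0.15 for Abcc4 (adjusted p = 0.724) and -0.54 for Ptgfrn (adjusted p = 0.32), and neither passed. The list median was -0.09 in clone 1 and -0.58 in clone 3.

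Of 28 tested genes of arachidonate release and reacylation, 6 were higher and 6 lower in both clones. Pla2g5, a secreted phospholipase A2, was above background on all knock-in arrays and on no control array. Against the floor of the control arrays, no strict limit, it was 2.7-fold higher in clone 1 and 4.38-fold higher in clone 3. In limma its measured levels, not this floor, gave adjusted p = 1.14e-05 in clone 1 and 8.69e-06 in clone 3. Pla2g5 is 1 of the 6, passed the filter through the knock-in arrays alone, and its p-values are set against background signals. Pla2g7, which hydrolyses platelet-activating factor, changed by 1.98 ± 0.14 in clone 1 (SE, adjusted p = 2.55e-05) and 2.21 ± 0.16 in clone 3 (SE, adjusted p = 3.17e-05). Pla2g12a, another secreted phospholipase, changed by 1.00 and 1.14. Dagla, the lipase that makes the endocannabinoid 2-arachidonoylglycerol, changed by -1.71 and -1.94. With the row as a block 4 were higher and 2 lower in both clones, and these 4 named genes were among them. The list median was -0.06 in clone 1 and -0.20 in clone 3.

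The other uses of arachidonic acid were covered by 17 tested lipoxygenase, leukotriene and epoxygenase genes, of which 0 were higher and 8 lower in both clones in limma (1 and 10 at an unadjusted p under 0.05, where 14.7% of all tested were higher in both and 17% lower), with a list median of -0.47 in clone 1 and -0.44 in clone 3. The 1 gene of the list called higher in either clone was Dpep1, which acts on leukotriene D4, at 1.12 in clone 3 (adjusted p = 0.0183), with 0.67 in clone 1 (adjusted p = 0.0774) and no called difference between the clones (adjusted p = 0.585). With the array row as a block that call was lost (1.47, adjusted p = 0.115). Ggt1, which trims leukotriene C4, was above background on the control arrays and on no knock-in array. Against the floor of the knock-in arrays, no strict limit, it was 4.47-fold lower in clone 1 and 4.25-fold lower in clone 3. In limma its measured levels, not this floor, gave adjusted p = 5.43e-05 in clone 1 and 0.000377 in clone 3. Ggt1 is 1 of the 8, passed the filter through the control arrays alone, and its p-values rest on knock-in signals at background. Cyp2j9, a cytochrome of the epoxygenase family, changed by -2.78 and -2.39. Ltb4r1, a receptor of leukotriene B4, changed by -1.20 and -1.27. Ephx2, the soluble epoxide hydrolase, changed by -1.04 and -1.48 and was lost with the array row in the fit (adjusted p = 0.0794 in clone 1 and 0.102 in clone 3). In that fit 3 of the 8 stayed lower in both clones, Ggt1, Cyp2j9 and Ltb4r1.

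Downstream of EP2 and EP4, 28 genes of cAMP production, breakdown and response were tested, of which 4 were higher in both clones (Crem, Adcy9, Akap12 and Prkaca) and 7 lower. Crem, a cAMP-responsive transcription factor gene, changed by 1.46 ± 0.13 in clone 1 (SE, adjusted p = 8.9e-05) and 1.64 ± 0.15 in clone 3 (SE, adjusted p = 0.000109). Adcy9, an adenylyl cyclase, changed by 1.36 and 1.09, Akap12, an anchor of protein kinase A, by 1.5 and 1.06, and Prkaca, a catalytic subunit of that kinase, by 0.66 and 0.67. Adcy7, another adenylyl cyclase, changed by -2.08 and -2.26. Pde4b, a phosphodiesterase that breaks cAMP down, changed by -2.54 and -1.99, and Prkar2b, a regulatory subunit of protein kinase A, by -1.25 and -1.48. With the row as a block 1 was higher, Crem, and 3 were lower in both clones, Adcy7, Pde4b and Prkar2b. The list median was -0.05 in clone 1 and -0.11 in clone 3.

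**Figure D5:**
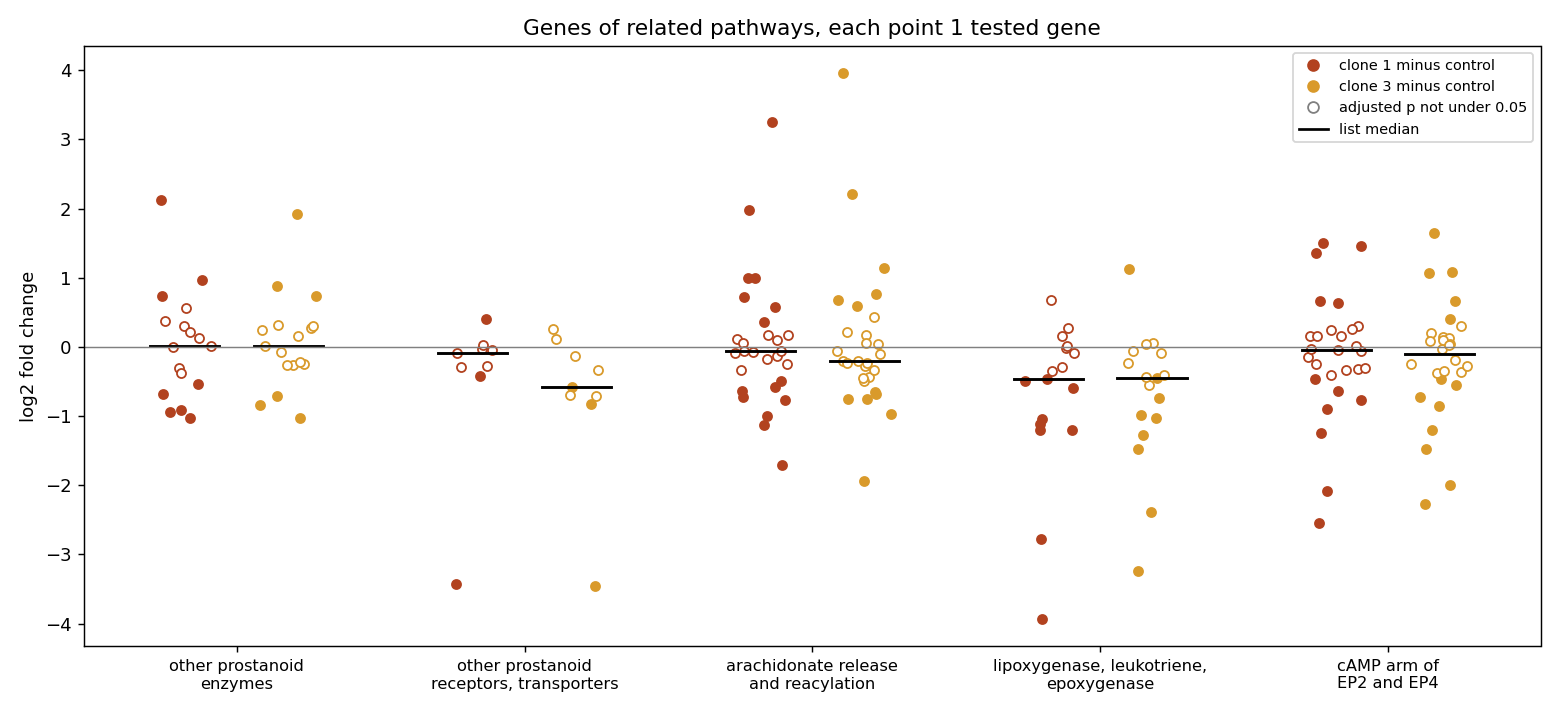
Log2 fold change of every tested gene of the 5 lists in clone 1 and clone 3 against the control, 1 point per gene, filled where the adjusted p was under 0.05, with the list median as a line. The points of the lipoxygenase, leukotriene and epoxygenase list have medians of -0.47 in clone 1 and -0.44 in clone 3. In clone 1 that list holds 0 genes called higher, and the other 4 lists hold called genes on both sides of 0. In clone 3 it holds 1 called higher and 8 lower, and the receptor and transporter list holds 0 higher and 3 lower.

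For 3 members the genes with the most alike pattern over the 8 arrays were looked up among 13566 named genes above background on every array, as a description. Pla2g4a was most like Usp18 (Pearson r = 0.9951), Mcts2 (0.9945) and Abtb1 (0.994). Usp18, a protease that removes the interferon-induced modifier ISG15, differed from the control by 2.04 in clone 1 and 1.79 in clone 3. Ptgs2 was most like Atp6ap2 (0.9782), Slc37a4 (0.9727) and Anxa9 (0.9655), all of them, like Ptgs2, with a larger difference from the control in clone 1 (0.46 to 0.60) than in clone 3 (0.19 to 0.25). Ptger4 was most like Csnk2a1 (0.9883), Ormdl2 (0.9811) and Golga3 (0.9778), where clone 3 lay further from the control. The 8 points of each r fall into 3 groups and share their arrays. Because these genes were picked by correlation, an order of the clones shared with the member follows from the choice.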

How the data were processed

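Each deposited array gives spot intensity, corrected for background by the authors with Agilent Feature Extraction, version 11.5.1.1 per the file headers and 11.5.11 per the submitters' processing notes. Outlier-flagged and control spots were left out, log2 intensity was reduced by the 75th percentile of its array, and spots of a probe were averaged. Probes were named through RefSeq accessions (32994 of 56605). The brightest probe over all arrays stood for a gene, and it was tested where all arrays of 1 or more groups showed it well above background. The fit of limma 3.58.1 (R 4.3.3; lmFit, eBayes, two-sided) was 1 fit of 3 groups, which lends clone 3 the spread of the others. Simulated data with known changes were used to check the fit. The alternatives tried were normexp, quantile and median scaling, other filters, probe means and single probes, a variance trend, the array row and each array left out, and combinations of single probes with the row or without clone 1 replicate 1 were added after seeing the data. The members and lists were chosen with earlier results of these data known. From each list up to 4 genes called in both clones with the same sign, those with the largest smaller change, are named, plus members of counts of 5 or fewer; Usp18 and the other alike genes are the 3 with the highest correlation.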

Additional observations from a re-analysis of the deposited data

How the results depend on the processing

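Over 498 values of single members under alternative settings, none changed sign where either value was called; 40 lost the call and 15 gained it. Losses fell on Ptger4 in both clones, Ptgr1 and Ptgs2 in clone 1 and Pla2g4a in clone 3, and gains on Ptges in both clones and on Ptgr1 in clone 3. Ptgis and Slco2a1 were called against the control in every fit that tested them. The fit with no filter on dim probes is among these, and it has the same sizes by construction. Of 6 members called in clone 1, 3 were left with the array row as a block and 3 within row 1 alone, both of which rest on 1 clone 1 array and give the same sizes; of 4 called in clone 3, 2 were left with the block and 2 with a filter on all 8 arrays, which drops Ptgis and Slco2a1. Over all genes and transcripts, calls in clone 1 numbered 7925, against 4375 with the block and 3570 within row 1. In clone 3 they numbered 7690, against 2067 with the block, 5090 with no filter and 5101 to 7449 with 1 array left out. Between the clones 18 were called, against 38 with normexp, 7 with no filter, 55 with a variance trend, 0 within row 2 alone (limma; 1548 at an unadjusted p under 0.05) and 8 to 62 with 1 array left out, the lowest without clone 1 replicate 2 and the highest without clone 3 replicate 1. The causes of these shifts were not tested, and several of these settings use fewer arrays or genes. Where 1 clone 3 array is left, it is assumed to vary like the other groups. Median scaling moved the share of calls that were higher to 51.9% in clone 1 and 53.1% in clone 3, against 46% and 44.6%. No paired analysis was possible because the labels give no replicate numbers; those used here follow the order of the arrays and only name them. Probes near background, as of Ptger2, Hpgd and the second Ptgis probe, limit what can be said of them.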
